A study of Mus musculus with 16 samples.

Results

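Genes of DNA replication and of cell division were followed in RNA sequencing of sorted mouse AT2 (alveolar type 2) cells, an epithelial type of the lung that makes surfactant. The set holds 41 genes, taken by symbol from 27179 gene identifiers and not by their measured values. It has 24 mitotic genes, 14 S phase genes and 3 genes of entry into S phase. All 41 were found in the table, and all 41 are among the 15516 genes that passed the filter on low counts.

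By the column names, cells came from 8 mice, and each mouse gave 1 library of CD44+ and 1 of CD44- cells. There were thus 4 groups of 4 libraries: OG CD44+, OG CD44-, R26 CD44+ and R26 CD44-. The sort took Epcam-positive, CD200-high cells without CD104, CD45 or CD31 and then divided them by CD44. The labels name the genotypes SP-C Mutant and SP-C WT, where SP-C is surfactant protein C, made from Sftpc, and they give the treatment text OG TMX for all 16 libraries. The study asked how the CD44+ and CD44- AT2 cells of fibrotic lungs differ. The table's columns carry the prefixes OG (animals 3, 5, 6 and 7) and R26 (animals 1, 2, 7 and 8), and animal 7 of OG is another mouse than animal 7 of R26. Reading OG as the mutant and R26 as the control is an inference that the labels do not state. Every OG against R26 difference depends on it for its meaning in genotype, and the CD44 comparisons inside a prefix do not. The mutant allele, the driver of any recombination, and the strain and age of the mice are not given in the sources used here.

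Libraries held 9022471 to 21363816 counts, and 3 counts corresponded to at most 0.356 CPM. CPM are counts scaled to a common library size with TMM factors, which limit the pull of a few abundant genes. All 10 AT2 markers were detected in every group, and their summed level averaged 23773 CPM in OG CD44+, 44363 in OG CD44-, 103087 in R26 CD44+ and 152047 in R26 CD44- libraries. Between libraries of one group, genes with at least 20 and fewer than 200 counts over a pair of libraries differed by a chi-square per degree of freedom of 1.38 to 3.09 in OG CD44+, 1.30 to 1.44 in OG CD44-, 3.17 to 4.41 in R26 CD44+ and 1.32 to 2.00 in R26 CD44-, where 1 would be counting noise alone. The R26 CD44+ libraries thus differed most among themselves. In OG CD44+ cells, animals 7, 6 and 5 were close to each other (1.38 to 1.55) and animal 3 stood apart (2.98 to 3.09), so results are also given with these 3 summed to 1 library per sort, or without animal 3, where a count moves by over 1.5 times. Nothing beyond the column names shows how the replicates were made, so p-values measure the spread between these libraries.

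A cell enters S phase when cyclin D kinases release the E2F transcription factors from the RB proteins, and E2F then switches on the genes that copy DNA. The mitotic genes come on later, in G2, when the MuvB complex with B-MYB and FOXM1 acts at promoters that carry a CHR element and CCAAT boxes. AT2 cells rest in the healthy lung and divide after injury, when they renew themselves and give rise to AT1 cells. In bulk libraries, fewer dividing cells and less RNA per dividing cell cannot be told apart.

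Promoter windows were looked at first, since the mitotic and the S phase genes are known to differ there. RefSeq windows (GRCm38.p6, 250 bases before to 50 bases after the gene start) matched 20 of 24 mitotic genes and 12 of 14 S phase genes, some with more than 1 window. A CHR element (TTTGAA or TTCGAA, both strands) stood in 17 of 21 mitotic windows (81.0%) and 2 of 14 S phase windows (14.3%), against 19.2% of all 32851 windows. An E2F element (TTTCCCGC, TTTCGCGC, TTTGCCGC or TTTGGCGC, both strands) stood in 1 of 21 mitotic windows (4.76%) and 7 of 14 S phase windows, against 2.26% of all windows. The CCAAT box (CCAAT, both strands) was found in 19 of 21 mitotic windows (90.5%), 10 of 14 S phase windows (71.4%) and 37.4% of all windows. These are letter matches and not measured binding. The windows printed are of 3 mitotic genes and 2 S phase genes on which the results turn. Plk1 and Ccnb2 had the smallest adjusted p in R26 CD44+ against R26 CD44- cells among mitotic genes with a CHR match, Bub1 is the mitotic gene not called in R26 CD44+ against R26 CD44- cells, and Mcm3 and Mcm6 are the S phase genes called in CD44+ cells of both OG and R26 animals. They run 5′ to 3′ on the gene's strand, with CHR, CCAAT and E2F matches in capitals. Plk1 is at chr7:122159185-122159484 (+), Ccnb2 at chr9:70421505-70421804 (-), Bub1 at chr2:127831810-127832109 (-), Mcm3 at chr1:20820263-20820562 (-) and Mcm6 at chr1:128359656-128359955 (-).
Plk1: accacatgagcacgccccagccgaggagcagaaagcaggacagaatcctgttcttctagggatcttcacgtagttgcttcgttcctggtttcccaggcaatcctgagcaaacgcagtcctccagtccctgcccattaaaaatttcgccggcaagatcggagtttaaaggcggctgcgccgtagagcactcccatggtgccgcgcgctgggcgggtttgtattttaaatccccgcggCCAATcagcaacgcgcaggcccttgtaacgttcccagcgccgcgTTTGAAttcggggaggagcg
Ccnb2: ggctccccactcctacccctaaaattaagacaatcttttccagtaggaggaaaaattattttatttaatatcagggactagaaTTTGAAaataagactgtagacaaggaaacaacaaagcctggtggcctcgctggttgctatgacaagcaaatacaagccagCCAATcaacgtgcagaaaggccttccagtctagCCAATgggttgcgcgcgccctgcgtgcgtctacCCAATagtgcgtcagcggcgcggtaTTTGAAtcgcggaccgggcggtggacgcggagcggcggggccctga
Bub1: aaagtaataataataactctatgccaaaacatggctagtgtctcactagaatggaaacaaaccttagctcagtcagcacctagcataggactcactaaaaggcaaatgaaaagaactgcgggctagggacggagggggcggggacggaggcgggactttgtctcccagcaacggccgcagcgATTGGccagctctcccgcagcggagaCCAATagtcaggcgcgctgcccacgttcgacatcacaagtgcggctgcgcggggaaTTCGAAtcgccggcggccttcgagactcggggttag
Mcm3: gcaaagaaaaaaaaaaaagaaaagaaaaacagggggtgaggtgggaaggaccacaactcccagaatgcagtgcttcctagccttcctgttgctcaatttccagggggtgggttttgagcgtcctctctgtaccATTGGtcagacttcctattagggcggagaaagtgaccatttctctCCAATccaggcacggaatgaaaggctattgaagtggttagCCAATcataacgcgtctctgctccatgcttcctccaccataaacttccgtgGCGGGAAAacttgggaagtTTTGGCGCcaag
Mcm6: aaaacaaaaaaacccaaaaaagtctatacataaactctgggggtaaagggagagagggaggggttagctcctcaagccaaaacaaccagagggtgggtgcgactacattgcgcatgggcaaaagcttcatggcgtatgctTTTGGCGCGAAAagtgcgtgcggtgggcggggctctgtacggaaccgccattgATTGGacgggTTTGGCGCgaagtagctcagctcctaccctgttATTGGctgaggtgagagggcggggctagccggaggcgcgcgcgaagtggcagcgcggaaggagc
Bub1 holds a CHR element, TTCGAA, and a pair of CCAAT boxes, the same kinds of match as Plk1 and Ccnb2. In Mcm6 the first 2 of 3 E2F matches overlap and make 1 run of capitals. Neither Plk1, Ccnb2 nor Bub1 has an E2F match in these 300 bases.

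Summed over the 24 mitotic genes, the level was highest in R26 CD44+ cells and lowest in R26 CD44- cells, with both OG groups between. It averaged 234 ± 11.4 CPM in OG CD44+, 164 ± 16.2 in OG CD44-, 413 ± 170 in R26 CD44+ and 124 ± 36.6 in R26 CD44- libraries (SD, n = 4 each, as for all CPM means). The R26 CD44+ libraries spread from 231 CPM in animal 8 and 309.6 in animal 2 to 525 in animal 1 and 588 in animal 7. The lowest of them stood inside the range of OG CD44+, 219.8 to 245 CPM. The 14 S phase genes summed to 205 ± 4.50 CPM in OG CD44+, 160.4 ± 5.74 in OG CD44-, 188 ± 29.0 in R26 CD44+ and 157 ± 19.1 in R26 CD44- libraries. The 4 group means of the S phase sum thus lay between 157 and 205 CPM. As a description, the mean log2(CPM + 1) of the S phase genes minus that of the mitotic genes was 0.64 ± 0.08 in OG CD44+, 0.71 ± 0.05 in OG CD44-, -0.14 ± 0.30 in R26 CD44+ and 1.05 ± 0.19 in R26 CD44- libraries. The size of this difference also depends on gene lengths, so only its change between libraries is read. The R26 groups lay at the extremes and did not overlap with each other or with OG, while the 2 OG groups overlapped.

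**Figure D1:**
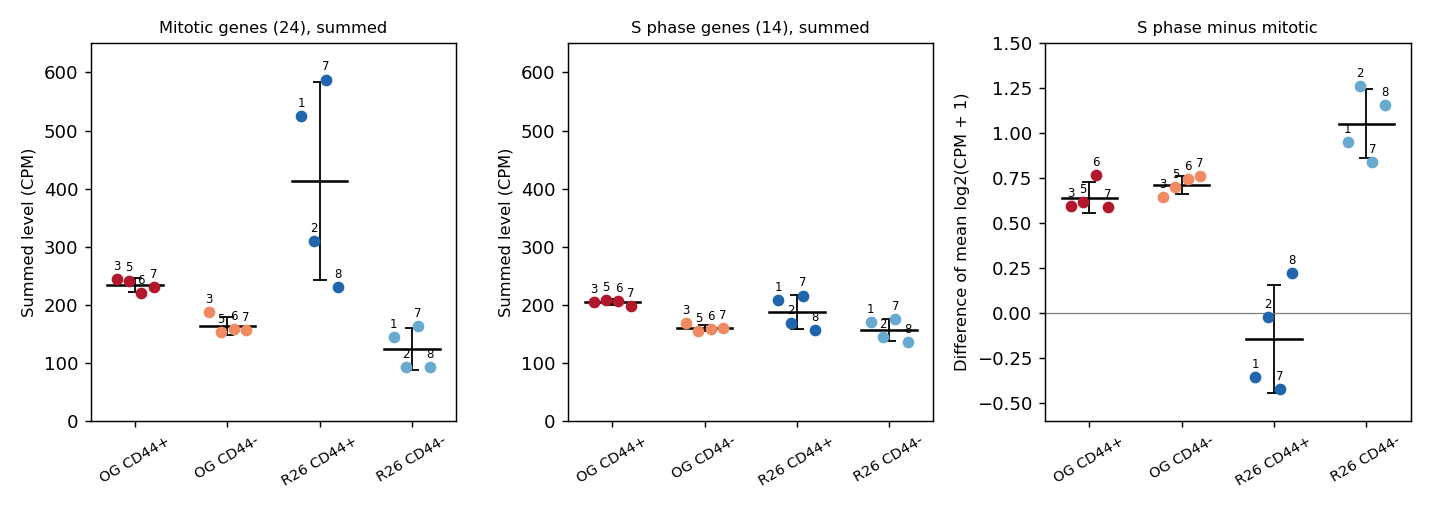
Summed level of the 24 mitotic genes and of the 14 S phase genes (CPM) and the difference of their mean log2(CPM + 1), by group. Each point is a library with its animal number, the line is the mean and the bar the SD of 4 libraries. The mitotic sum of R26 CD44+ ranges from 231 to 588 CPM, while OG CD44+ stays between 219.8 and 245 CPM.

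Levels between genes were set side by side per length, as RPKM (CPM per kilobase of exon). Cdc20, the activator of the anaphase-promoting complex, was the most abundant mitotic gene in 3 groups, with 5.38 RPKM in OG CD44+, 5.05 in OG CD44- and 12.8 in R26 CD44+ cells. Bub1, a kinase of the spindle checkpoint, led in R26 CD44- cells with 5.65 RPKM, beside 5.19 for Cdc20. Ttk, another checkpoint kinase, was the least abundant in all 4 groups, with 0.460 RPKM in OG CD44+, 0.179 in OG CD44-, 0.505 in R26 CD44+ and 0.107 in R26 CD44- cells. Pcna, the sliding clamp of DNA polymerases, led the S phase genes in all groups, with 11.3 RPKM in OG CD44+, 10.4 in OG CD44-, 14.0 in R26 CD44+ and 14.8 in R26 CD44- cells. Ccnd1, cyclin D1, exceeded every other member, with 176 RPKM in OG CD44+, 149 in OG CD44-, 64.5 in R26 CD44+ and 69.7 in R26 CD44- cells.

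Among individual mitotic genes, R26 CD44+ animal 7 was the highest of 16 libraries for 17 genes and R26 CD44+ animal 1 for 6. R26 CD44- animal 1 was highest for the remaining gene, Bub1. The lowest library was R26 CD44- animal 2 for 13 genes and R26 CD44- animal 8 for 8. No OG library was the highest for any mitotic gene.

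**Figure D2:**
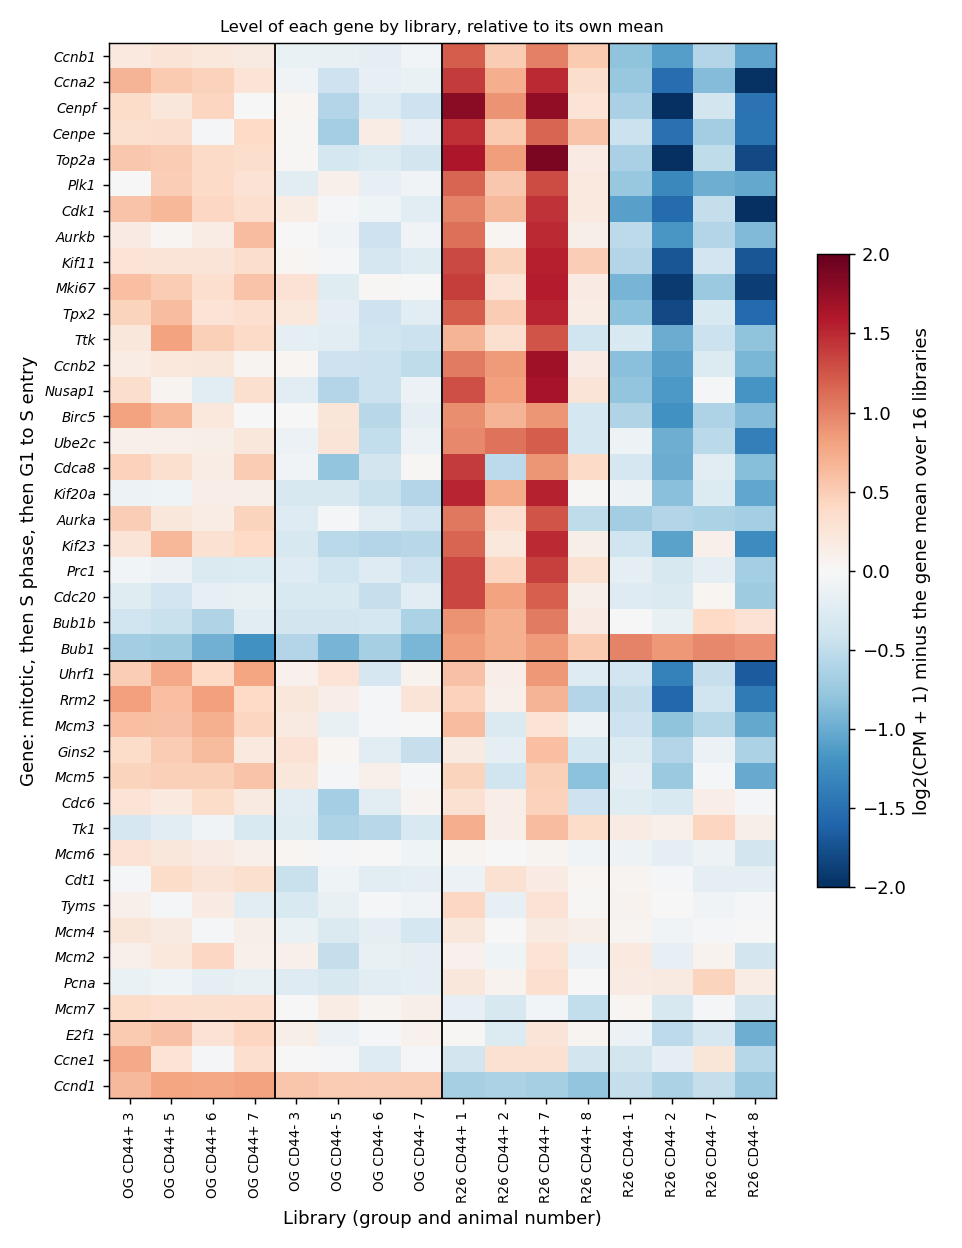
Level of each of the 41 genes (rows: mitotic, S phase, G1 to S entry) in each of the 16 libraries (columns, by group and animal), as log2(CPM + 1) minus the gene's mean over the 16 libraries, in color. The mitotic rows are high in R26 CD44+ animals 1 and 7 and low in R26 CD44- cells, and Bub1 is high in all 8 R26 libraries and Ccnd1 in all 8 OG libraries.

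In OG animals, 7 of 14 S phase genes and 4 of 24 mitotic genes rose in CD44+ cells against CD44- cells, and 0 fell in either list (edgeR's quasi-likelihood test, Benjamini-Hochberg adjusted p under 0.05 over 15516 genes; 0 fell also at an unadjusted p under 0.05 and by DESeq2 and limma voom). Of the 3 entry genes, E2f1 and Ccnd1 rose. Over all genes tested, 22.3% rose and 28.0% fell, so in this fit the mitotic count was not above the background and the S phase count was. That contrast depends on the model. With the animal as a block, 18 of 24 mitotic and 11 of 14 S phase genes rose, while 55.2% of all genes were called in either direction. In the fit over 16 libraries, the median log2 fold change was 0.57 over mitotic genes and 0.42 over S phase genes, against -0.06 over all genes. Only Bub1, at -0.14 ± 0.13, was below 0 among the 41 (± is the standard error for log2 fold changes).

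The S phase genes that rose were Mcm2, Mcm3, Mcm4, Mcm6, Mcm7, Cdt1 and Cdc6. Of 14 further genes of origin licensing and firing, 2 rose and 2 fell in the same comparison, 14.3% each way. Mcm3, a helicase subunit, had 13.5, 16.5, 15.2 and 15.3 CPM in OG CD44+ animals 7, 6, 5 and 3, against 9.74, 9.54, 8.68 and 11.1 CPM in OG CD44- cells of the same animals. All 4 CD44+ libraries exceeded all 4 CD44- libraries, a log2 fold change of 0.62 ± 0.16 (adjusted p = 0.0024). Mcm4 had 17.0 to 20.8 CPM in OG CD44+ cells against 13.4 to 15.8 CPM in OG CD44- cells, again without overlap, and rose by 0.39 ± 0.09 (adjusted p = 0.00051). The other helicase subunits called were Mcm2 at 0.38 ± 0.13, Mcm6 at 0.22 ± 0.07 and Mcm7 at 0.27 ± 0.10. Mcm7 shares exon bases with a gene on the other strand, and the strand setting of the counting is not known. Cdt1, which loads the helicase, rose by 0.52 ± 0.13, and Cdc6, its partner in loading, by 0.70 ± 0.27. Mcm5, the remaining subunit of the helicase, had a log2 fold change of 0.44 ± 0.26 and did not pass (adjusted p = 0.18), though its groups did not overlap. Pcna had 27.2 ± 0.896 CPM in OG CD44+ and 25.0 ± 0.908 in OG CD44- cells (0.12 ± 0.08, adjusted p = 0.23). The genes of nucleotide supply did not pass either: Rrm2, a subunit of ribonucleotide reductase, had 0.59 ± 0.29, Tk1, thymidine kinase, 0.22 ± 0.15, and Tyms, thymidylate synthase, 0.18 ± 0.15. Neither did Uhrf1, which maintains DNA methylation at the fork (0.65 ± 0.30), nor Gins2, part of the active helicase (0.80 ± 0.34).

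Among mitotic genes, Ttk had 2.01, 2.24, 3.07 and 1.72 CPM in OG CD44+ animals 7, 6, 5 and 3, against 0.715 to 1.04 CPM in OG CD44- cells. The groups did not overlap and Ttk rose by 1.37 ± 0.41 (adjusted p = 0.0074), from a base of few counts. Kif23, a motor of the central spindle, rose by 1.02 ± 0.36, Ccna2, cyclin A2, by 0.75 ± 0.28, and Aurka, a kinase of the spindle poles, by 0.69 ± 0.29 (adjusted p = 0.032 to 0.049). Mki67, the antigen used to mark cycling cells, had 52.1, 43.9, 49.7 and 53.1 CPM in OG CD44+ cells against 34.4, 35.1, 29.0 and 42.6 CPM in OG CD44- cells. These do not overlap either, but the log2 fold change of 0.49 ± 0.33 did not pass (adjusted p = 0.24). Levels did not overlap, with CD44+ higher, for 14 of 24 mitotic and 10 of 14 S phase genes, against 22.6% of all genes, while 28.4% of all genes lay apart with CD44+ lower. Inside single animals, 20 to 23 of 24 mitotic genes and 12 to 14 of 14 S phase genes were higher in CD44+ than in CD44- cells.

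The count in OG animals differed with the model. The fit over 16 libraries shares 1 spread per gene among the 4 groups, of which R26 CD44+ varied most. With the animal as a block, 32 members were called in place of 13, of them 18 mitotic and 11 S phase genes, while 55.2% of all genes were called against 50.4%. Mki67 (log2 fold change 0.50, adjusted p = 2.9e-08), Top2a and Cdk1 were among those gained. With only the 8 OG libraries, 35 were called (56.2% of all genes). With OG animals 7, 6 and 5 summed to 1 library per sort, a choice made after seeing the data, only Mcm4 was called (31.8% of all genes), and without both libraries of OG animal 3 there were 8 (42.2%). Leaving out single libraries gave 7 calls without OG CD44- animal 6, 8 without OG CD44- animal 5, 8 without OG CD44+ animal 5 and 20 without R26 CD44+ animal 8. The mitotic count among them ran from 1 to 8 and the S phase count from 5 to 10.

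In R26 animals, 23 of 24 mitotic genes rose in CD44+ cells against CD44- cells, while 4 of 14 S phase genes and 1 of 3 entry genes rose. In the edgeR fit over 16 libraries 0 members fell, and 0 mitotic or S phase genes fell at an unadjusted p under 0.05 or by DESeq2 or limma voom. With another TMM reference library edgeR called 2 members lower, 1 of them mitotic. Without R26 CD44+ animal 7 it called 3 lower, 1 of them mitotic and 1 an S phase gene. Over all genes tested, 21.6% rose and 15.4% fell, 37.1% in either direction. The median log2 fold change was 2.19 over mitotic genes and 0.26 over S phase genes, against -0.02 over all genes. The mitotic levels did not overlap, with CD44+ higher, for 19 of 24 genes (17.2% of all genes), and this held for 3 of 14 S phase genes.

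Ccnb1, cyclin B1, which drives entry into mitosis, had 3.11, 4.75, 3.09 and 5.61 CPM in R26 CD44+ animals 8, 7, 2 and 1, against 0.387, 0.920, 0.333 and 0.643 CPM in R26 CD44- cells. The groups stood well apart, a log2 fold change of 2.83 ± 0.30 (adjusted p = 5.7e-08), the largest of the 41. Its partner kinase Cdk1 had 7.06, 18.2, 10.1 and 13.0 CPM in R26 CD44+ cells against 0.774, 4.08, 1.41 and 2.33 CPM in R26 CD44- cells, and rose by 2.48 ± 0.36 (adjusted p = 5.5e-05). Plk1, the polo kinase of mitotic entry and exit, had 4.33, 10.5, 5.82 and 9.45 CPM in R26 CD44+ cells against 1.29, 1.38, 0.915 and 1.77 CPM in R26 CD44- cells, and rose by 2.49 ± 0.26 (adjusted p = 6.7e-08). In each of these genes animals 7 and 1 were higher than animals 8 and 2 among the CD44+ libraries. The other cyclins rose by 2.62 ± 0.32 (Ccna2) and 2.15 ± 0.29 (Ccnb2).

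Mki67 had 39.0, 105, 42.0 and 92.1 CPM in R26 CD44+ animals 8, 7, 2 and 1, against 8.71, 20.3, 8.41 and 17.7 CPM in R26 CD44- cells. The order of the animals was nearly the same in both sorts, and every animal was several-fold higher in CD44+ cells (2.34 ± 0.37, adjusted p = 0.00024). Top2a, the topoisomerase that untangles sister chromatids, rose by 2.50 ± 0.42. Genes of the kinetochore and the chromosome passenger complex rose too: Cenpf by 2.57 ± 0.43, Cenpe by 2.52 ± 0.35, Aurkb by 2.41 ± 0.38, Birc5 by 2.10 ± 0.37 and Cdca8 by 1.82 ± 0.41. So did the spindle motors and spindle proteins, Kif11 by 2.38 ± 0.37, Tpx2 by 2.29 ± 0.40, Nusap1 by 2.13 ± 0.35, Kif20a by 1.76 ± 0.32, Aurka by 1.70 ± 0.30, Kif23 by 1.56 ± 0.37 and Prc1 by 1.34 ± 0.22. Among checkpoint and exit genes, Ttk rose by 2.24 ± 0.46, Ube2c, which feeds ubiquitin to the anaphase-promoting complex, by 2.05 ± 0.40, Cdc20 by 1.30 ± 0.22 and Bub1b by 0.63 ± 0.16. Adjusted p-values of the genes in these last 4 sentences ran from 9.6e-06 for Cenpe to 0.0043 for Kif23. Inside single animals, 22 to 23 of 24 mitotic genes were higher in CD44+ than in CD44- cells, with a median log2 difference of 1.22 in animal 8 to 1.85 in animal 2.

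The S phase genes that rose in R26 CD44+ cells were Uhrf1, Rrm2, Mcm3 and Mcm6. Uhrf1 had 6.59, 15.5, 9.02 and 12.7 CPM in R26 CD44+ animals 8, 7, 2 and 1, against 1.87, 5.59, 2.58 and 5.95 CPM in R26 CD44- cells, without overlap (1.47 ± 0.33, adjusted p = 0.0028). Rrm2 rose by 1.39 ± 0.34, Mcm3 by 0.97 ± 0.18 and Mcm6 by 0.21 ± 0.07 (adjusted p = 0.00013 to 0.025). The remaining S phase genes had log2 fold changes from -0.09 ± 0.11 for Mcm7 to 0.94 ± 0.39 for Gins2. Pcna averaged 33.7 ± 3.67 CPM in R26 CD44+ and 35.6 ± 3.81 in R26 CD44- cells, and its libraries overlapped (-0.08 ± 0.08, adjusted p = 0.47).

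**Figure D3:**
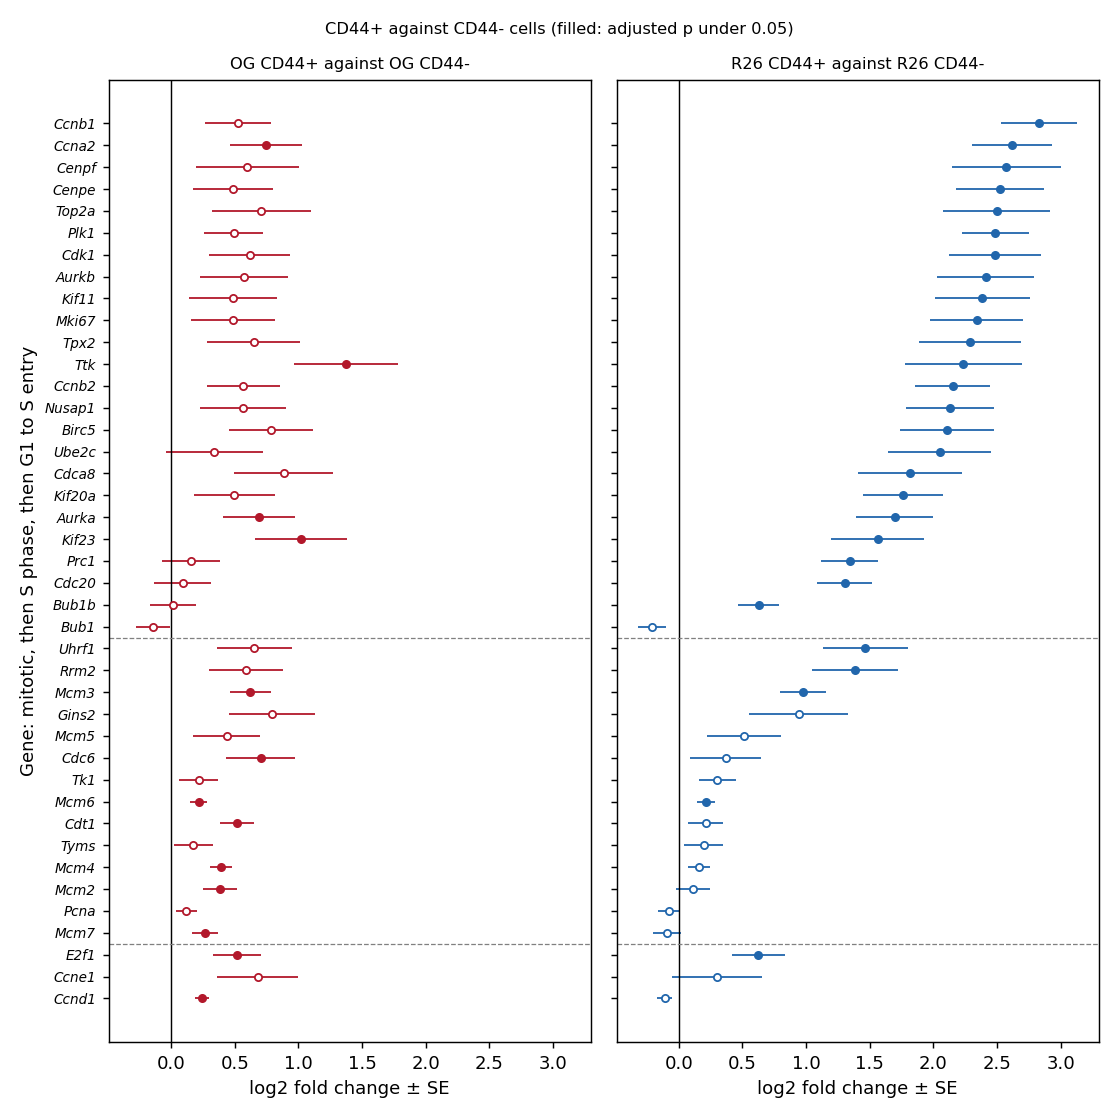
Log2 fold change ± SE of each of the 41 genes in CD44+ against CD44- cells, in OG animals (left) and R26 animals (right), with filled points for adjusted p under 0.05. In R26 animals 23 of 24 mitotic genes are filled and lie between 0.63 and 2.83, while in OG animals 4 mitotic and 7 S phase genes are filled.

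Whether the CD44 difference itself differed between OG and R26 animals was tested as an interaction, the OG log2 fold change minus the R26 one. It passed below 0 for 16 of 24 mitotic genes and above 0 for 0 of them (0 also at an unadjusted p under 0.05, and by DESeq2 and limma voom). Of 14 S phase genes 0 passed in either direction in the edgeR fit over 16 libraries. At an unadjusted p under 0.05, 1 was above 0, and DESeq2 and limma voom each called 1 above 0. With the animal as a block, edgeR called 1 S phase gene above 0 and 2 below 0. With another TMM reference library it called 3 above 0 and 0 below 0. The S phase values ran from -0.81 to 0.36. Of all genes tested, 18.1% passed below 0 and 6.56% above 0. The median was -1.61 over mitotic genes and -0.01 over S phase genes, against -0.10 over all genes. Ccnb1 had the largest difference, -2.30 ± 0.40 (adjusted p = 0.00014), followed by Cenpe at -2.04 ± 0.47, Plk1 at -2.00 ± 0.35, Cenpf at -1.97 ± 0.59 and Kif11 at -1.90 ± 0.51. Mki67 had -1.85 ± 0.49, Cdk1 -1.86 ± 0.48, Ccna2 -1.87 ± 0.43, Aurkb -1.84 ± 0.52 and Top2a -1.79 ± 0.57. The other mitotic genes that passed were Ube2c, Tpx2, Ccnb2, Nusap1, Cdc20 and Prc1, from -1.71 ± 0.56 to -1.19 ± 0.32. Ccnd1 was the only member that passed above 0 in this fit, at 0.35 ± 0.08 (adjusted p = 0.0021). Under the 25 alternative settings in which they were tested, the calls of Top2a and Tpx2 held in 8 and 7 and that of Ube2c in 9 of 24, while Plk1 held in all 25 and Ccnb1 in all 24 of its settings. With OG animals 7, 6 and 5 summed, the mitotic median was -1.70 and 3 genes passed, namely Ccnb1, Plk1 and Cenpe (11.4% of all genes, against 24.6%).

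The R26 CD44- libraries also serve as the base of the next comparison, and each other group likewise enters more than 1 comparison, so the results share samples. In CD44- cells, 10 of 24 mitotic genes were higher in OG than in R26 animals and 2 were lower. Of the S phase genes, 5 of 14 were higher and 3 were lower, and 2 of 3 entry genes were higher. Over all genes, 39.4% were higher and 29.6% lower (69.0% in either direction), so the share of mitotic genes called higher was close to the background. The median log2 fold change was 0.84 over mitotic genes and 0.04 over S phase genes, against 0.12 over all genes. The S phase median became -0.06 when another library served as the scaling reference. Without R26 CD44- animal 2, 14 members were called in place of 22, and 6 in place of 10 mitotic and 2 in place of 5 S phase genes were higher. Without R26 CD44- animal 8, 6 mitotic and 3 S phase genes were higher and the mitotic median was 0.51.

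Mki67 had 29.0 to 42.6 CPM in OG CD44- libraries, above all 4 R26 CD44- libraries at 8.41 to 20.3 CPM, as were 38.6% of all genes (1.36 ± 0.37, adjusted p = 0.0056). Ccnb1 had 1.75, 1.52, 1.59 and 1.61 CPM in OG CD44- animals 7, 6, 5 and 3, again above all R26 CD44- libraries, and was higher by 1.47 ± 0.31 (adjusted p = 0.00021). The others were Cdk1 at 1.43 ± 0.37, Plk1 at 1.33 ± 0.27, Ccna2 at 1.25 ± 0.33, Cenpe at 1.20 ± 0.36, Birc5 at 1.12 ± 0.38, Aurkb at 1.10 ± 0.40, Tpx2 at 1.06 ± 0.41 and Kif11 at 1.05 ± 0.39. Cdc20 and Prc1 had nearly equal means, 9.44 and 13.2 CPM in OG CD44- against 9.70 and 13.2 CPM in R26 CD44- cells. Of the S phase genes, Rrm2 was higher by 1.28 ± 0.33, Uhrf1 by 1.05 ± 0.33, Mcm3 by 0.79 ± 0.17, Mcm7 by 0.25 ± 0.10 and Mcm6 by 0.18 ± 0.07, of which the last 2 calls each held in 9 of 25 alternative settings. Those lower in OG CD44- cells were Tk1 at -0.71 ± 0.15, Pcna at -0.51 ± 0.08 and Mcm4 at -0.24 ± 0.09. Pcna had 25.9, 25.4, 23.8 and 24.8 CPM in OG CD44- animals 7, 6, 5 and 3, against 33.3, 41.3, 34.0 and 33.8 CPM in R26 CD44- animals 8, 7, 2 and 1. The groups did not overlap (adjusted p = 4.3e-06).

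In CD44+ cells, 13 of 24 mitotic genes were lower in OG than in R26 animals and 0 were higher in edgeR (0 also at an unadjusted p under 0.05, by DESeq2 and by limma voom). Of the S phase genes, 3 of 14 were higher and 2 lower, and 2 of 3 entry genes were higher. Over all genes, 34.5% were higher and 34.6% lower, 69.1% in all. The median log2 fold change was -0.84 over mitotic genes and 0.17 over S phase genes, against -0.01 over all genes. Cdc20 had 10.7, 10.6, 8.94 and 9.94 CPM in OG CD44+ animals 7, 6, 5 and 3, against 13.2, 28.9, 21.6 and 31.8 CPM in R26 CD44+ animals 8, 7, 2 and 1. No libraries overlapped, and Cdc20 fell by 1.25 on the log2 scale (SE 0.22, adjusted p = 8.0e-05). Prc1, which bundles the central spindle, had -1.19 ± 0.22, Kif20a -1.15 ± 0.30, Cenpf -1.13 ± 0.39, Nusap1 -1.08 ± 0.32, Ccnb2 -1.01 ± 0.27, Ube2c -0.86 ± 0.37, Ccnb1 -0.84 ± 0.25, Cenpe -0.84 ± 0.30, Kif11 -0.84 ± 0.33 and Plk1 -0.66 ± 0.23. In 7 of 24 mitotic genes all OG CD44+ libraries lay below all R26 CD44+ libraries, against 28.3% of all genes (29.3% of all genes lay apart with OG CD44+ higher). Mki67 overlapped, with 43.9 to 53.1 CPM in OG CD44+ and 39.0 to 105 CPM in R26 CD44+ cells (-0.49 ± 0.33, adjusted p = 0.20). Of the S phase genes, Mcm7 was higher by 0.61 ± 0.11, Mcm3 by 0.44 ± 0.16 and Mcm6 by 0.18 ± 0.07, and Tk1 was lower at -0.80 ± 0.15 and Pcna at -0.31 ± 0.08. The call of Ube2c held in 8 of 24 alternative settings. With OG animals 7, 6 and 5 summed, 12 members were called in place of 20. Without R26 CD44+ animal 7 or without animal 1, 8 mitotic genes were lower in place of 13, and the mitotic median was -0.56 without animal 7 and -0.63 without animal 1.

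Bub1 (chr2:127801122-127831865, GRCm38) went apart from the other mitotic genes. It had 4.80, 5.89, 7.19 and 7.31 CPM in OG CD44+ animals 7, 6, 5 and 3, and 6.11, 7.48, 6.01 and 7.95 CPM in OG CD44- cells of the same animals. In R26 animals 8, 7, 2 and 1 it had 18.3, 23.0, 21.0 and 22.8 CPM in CD44+ cells and 24.3, 25.0, 23.3 and 25.7 CPM in CD44- cells. All 8 OG libraries lay below all 8 R26 libraries. The log2 fold change of OG against R26 was -1.75 ± 0.13 in CD44+ cells (adjusted p = 8.8e-12) and -1.82 ± 0.12 in CD44- cells (adjusted p = 1.2e-12). CD44+ against CD44- gave -0.14 ± 0.13 in OG (adjusted p = 0.40) and -0.21 ± 0.11 in R26 animals (adjusted p = 0.15), and the interaction was 0.07 ± 0.17. The 4 R26 CD44+ libraries lay just below the 4 R26 CD44- libraries, and Bub1 was called lower in R26 CD44+ cells in 4 of 26 alternative settings. No gene on the other strand shares its exons in the annotation used. Bub1b, which encodes BUBR1 of the same checkpoint, was also lower in OG animals, with 6.46 ± 0.803 CPM in OG CD44+ against 15.6 ± 4.05 in R26 CD44+ cells (-1.27 ± 0.17, adjusted p = 6.7e-07) and 6.39 ± 0.668 CPM in OG CD44- against 10.0 ± 1.90 in R26 CD44- cells (-0.65 ± 0.17, adjusted p = 0.0016).

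Among the entry genes, Ccnd1 (chr7:144929931-144939925, GRCm38) had 853, 840, 851 and 766 CPM in OG CD44+ animals 7, 6, 5 and 3, and 696, 693, 696 and 717 CPM in OG CD44- cells. In R26 animals 8, 7, 2 and 1 it had 282, 309, 317 and 308 CPM in CD44+ cells and 293, 352, 316 and 353 CPM in CD44- cells. OG libraries thus exceeded R26 libraries in both sorts, by 1.45 ± 0.06 in CD44+ (adjusted p = 1.3e-16) and 1.09 ± 0.06 in CD44- cells (adjusted p = 2.0e-14). In CD44+ against CD44- cells it rose by 0.24 ± 0.06 in OG animals (adjusted p = 0.00095), and it had -0.11 ± 0.06 in R26 animals (adjusted p = 0.13). There it was called lower in 12 of 26 alternative settings, among them DESeq2, another scaling reference and the replicate block (adjusted p from 0.0012 to 0.39 over the 26). A gene on the other strand shares exon bases with Ccnd1. E2f1, the transcription factor of S phase entry, had 6.58 ± 0.663 CPM in OG CD44+, 4.59 ± 0.403 in OG CD44-, 4.60 ± 0.819 in R26 CD44+ and 3.02 ± 0.964 in R26 CD44- cells. It passed in all 4 pairwise comparisons, with log2 fold changes of 0.51 to 0.63, and not in the interaction (-0.11 ± 0.28). Ccne1, cyclin E1, passed in none of the 5 comparisons, with 2.38 ± 0.783, 1.49 ± 0.190, 1.64 ± 0.702 and 1.31 ± 0.574 CPM in the same order of groups. Mcm5, Tyms and Gins2 were the only other members that passed in none.

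**Figure D4:**
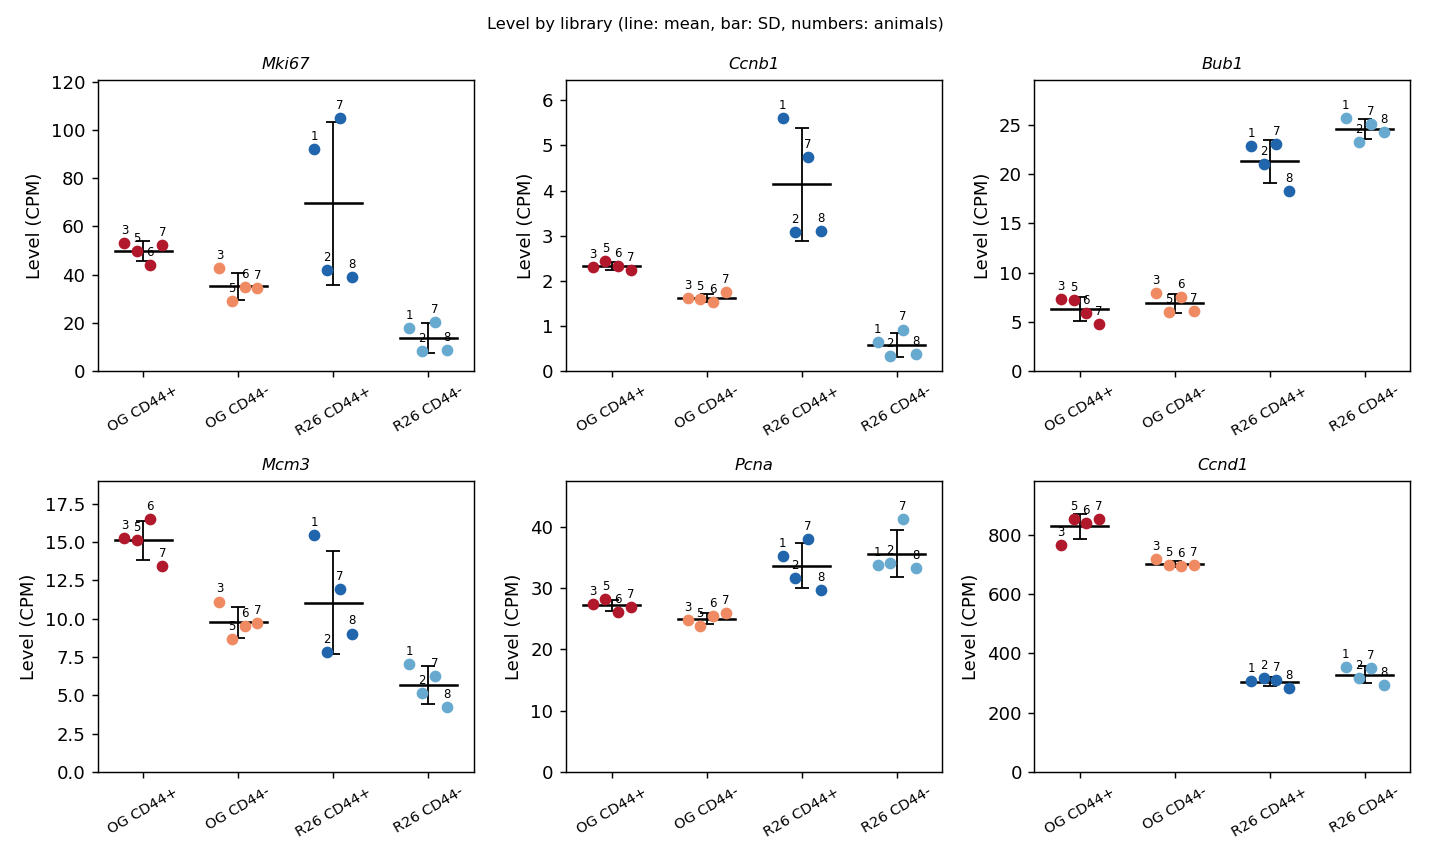
Level (CPM) of Mki67, Ccnb1, Bub1, Mcm3, Pcna and Ccnd1 in each library, by group, with animal numbers, the mean as a line and the SD of 4 libraries as a bar. Bub1 and Ccnd1 separate OG from R26 libraries in both sorts. Mki67 and Ccnb1 separate CD44+ from CD44- libraries in R26 and in OG animals, where their log2 fold changes of 0.49 and 0.53 were not called.

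A further 115 genes of the same pathways were read from the same fits, and 114 of them were tested. Of 27 other mitotic genes, 24 rose in R26 CD44+ against R26 CD44- cells and 0 fell (0 also at an unadjusted p under 0.05), with a median log2 fold change of 2.10. In OG CD44+ against OG CD44- cells 4 of them rose and 0 fell (0 also unadjusted), with a median of 0.42. The interaction passed below 0 for 14 of 27. Of all genes, 21.6% rose in R26, 22.3% rose in OG and 18.1% had an interaction that passed below 0. The share called in OG was thus under that of all genes in this fit. Even so, 25 of the 27 had log2 fold changes above 0 in OG animals. For 10 of 27 the OG groups did not overlap, with CD44+ higher, against 22.6% of all genes. Kif2c, a microtubule depolymerase, rose by 2.50 ± 0.27 in R26, Cdca3, a trigger of mitotic entry, by 2.46 ± 0.25 and Pbk, a mitotic kinase, by 2.58 ± 0.35. Nek2, a centrosome kinase, rose in both, by 1.30 ± 0.26 in OG and 2.25 ± 0.29 in R26 animals. All 5 condensin genes, which compact chromosomes, rose in R26 CD44+ cells, from 0.43 ± 0.11 for Smc4 to 2.21 ± 0.39 for Ncaph. In OG CD44+ cells Ncapd2 rose by 0.49 ± 0.17 and Smc4 fell by 0.37 (SE 0.11). Of 11 genes of the anaphase-promoting complex and its regulators, 0 rose in R26 CD44+ cells (2 at an unadjusted p under 0.05). There 1 fell (9.09%, against 15.4% of all genes). In OG CD44+ cells 1 rose (9.09%) and 3 fell (27.3%), against 22.3% and 28.0% of all genes.

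Upstream, Foxm1 had 7.34 CPM in OG CD44+, 5.46 in OG CD44-, 15.5 in R26 CD44+ and 5.43 in R26 CD44- cells on average. It rose by 1.52 ± 0.20 in R26 CD44+ against R26 CD44- cells (adjusted p = 3.7e-06), had 0.43 ± 0.21 in OG animals (adjusted p = 0.092), and its interaction was -1.09 ± 0.29 (adjusted p = 0.0083). Mybl2, which encodes B-MYB, stayed at 1.06 to 1.70 CPM on average in the 4 groups and passed in none of the comparisons. Of the RB and E2F family, E2f7 rose in CD44+ cells of OG (0.69 ± 0.28) and R26 animals (1.30 ± 0.32), E2f8 rose in R26 (1.46 ± 0.46) and E2f2 fell in both, by 0.42 in OG (SE 0.07) and 0.34 in R26 animals (SE 0.06). Of the 14 genes of origin licensing and firing, 4 rose in R26 CD44+ cells (28.6%, against 21.6% of all genes), where 0 fell in edgeR or at an unadjusted p under 0.05. In OG CD44+ cells 2 rose, Orc1 and Dbf4, and 2 fell, Orc2 and Orc3, shares under those of all genes (22.3% and 28.0%). Cdc7, the kinase that fires origins, rose by 2.11 ± 0.57 in R26 from few counts. Of 17 genes of the fork and of nucleotide supply, 4 rose and 1 fell in OG and 7 rose in R26, where 0 fell, also unadjusted. The share that rose was close to that of all genes in OG (22.3%) and above that of all genes in R26 (21.6%). The share that fell in OG was under that of all genes (28.0%). Fen1, the flap nuclease, rose in OG by 0.79 ± 0.15. Of 10 checkpoint genes, 3 rose in OG (30%, against 22.3% of all genes) and 6 in R26 CD44+ cells (60%, against 21.6%). Cdc25b, a phosphatase that activates mitotic CDK, was lower in OG than in R26 animals in both sorts, with 19.6 CPM in OG CD44+ against 60.8 in R26 CD44+ cells (-1.63 ± 0.07) and 21.0 CPM in OG CD44- against 61.4 in R26 CD44- cells (-1.56 ± 0.07).

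The CDK inhibitors, which hold the cycle back, were higher and lower by gene. Cdkn1a, p21, averaged 368 CPM in OG CD44+, 283 in OG CD44-, 120 in R26 CD44+ and 103 in R26 CD44- cells, and was higher in OG than R26 animals by 1.62 ± 0.06 in CD44+ and 1.46 ± 0.06 in CD44- cells. Cdkn2b, p15, was higher by 2.74 ± 0.11 and 2.58 ± 0.11 in the same comparisons, with 56.0 CPM in OG CD44+ against 8.49 in R26 CD44+ cells and 31.4 CPM in OG CD44- against 5.24 in R26 CD44- cells. Both also rose in CD44+ against CD44- cells, Cdkn1a by 0.38 ± 0.06 in OG and 0.22 ± 0.06 in R26, and Cdkn2b by 0.84 ± 0.09 in OG and 0.68 ± 0.13 in R26. Cdkn2c, p18, fell by 0.45 in OG CD44+ cells (SE 0.16) and rose by 0.80 ± 0.17 in R26 CD44+ cells, with an interaction of -1.26 ± 0.23 (adjusted p = 0.00031). Cdkn1c, p57, was higher in OG than in R26 animals by 1.26 ± 0.13 in CD44+ and 1.85 ± 0.13 in CD44- cells. Cdkn1b, p27, was lower at -0.51 ± 0.07 and -0.38 ± 0.06, and Cdkn2d, p19, at -0.95 ± 0.19 and -1.04 ± 0.18, in the same order. Cdkn2a was below the count filter, with means of 1.05, 0.324, 0.489 and 0.0208 CPM in OG CD44+, OG CD44-, R26 CD44+ and R26 CD44- cells. Of the G1 cyclins and kinases, Ccnd2 rose in CD44+ cells of OG (0.71 ± 0.10) and R26 animals (0.37 ± 0.11), and Cdk6 rose in OG (1.03 ± 0.17).

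Markers of other cell types also differed between the sorts. The 12 lymphocyte and plasma cell markers, of which 11, 10, 12 and 12 were detected, summed to 756 to 1959 CPM in OG CD44+, 44.5 to 79.8 in OG CD44-, 724 to 1969 in R26 CD44+ and 16.3 to 27.0 in R26 CD44- libraries. Detected means any count in the group, and only 5 of the 12 passed the filter on low counts. Of these 5, 4 rose and 1 fell in OG CD44+ cells, and 4 rose and 0 fell in R26 CD44+ cells in edgeR. Nkg7 was at 0 in OG CD44+ cells. Ptprc, which encodes the CD45 removed in the sort, had 3.84 to 8.62 CPM in OG CD44+, 0.716 to 1.42 in OG CD44-, 4.75 to 15.4 in R26 CD44+ and 0.129 to 0.197 in R26 CD44- libraries. Within R26 CD44+, the library with the most Ptprc was animal 2, with 15.4 CPM and a mitotic sum of 309.6 CPM. Animals 7 and 1 had 4.75 and 5.05 CPM of Ptprc and mitotic sums of 588 and 525 CPM. Animal 8 had the lowest mitotic sum of these libraries, with Ptprc between the levels of animals 1 and 2. Between the sorts, Ptprc and the mitotic sum were both higher in all R26 CD44+ than in all R26 CD44- libraries. Whether Ptprc and the mitotic sum go together was not tested. The 8 fibroblast and mural cell markers, all detected, summed to 1576 to 2812 CPM in OG CD44+, 709 to 771 in OG CD44-, 682 to 1470 in R26 CD44+ and 97.1 to 128 in R26 CD44- libraries. Club and secretory markers summed to 1819 to 2511 CPM in OG CD44+, 631 to 752 in OG CD44-, 1794 to 3272 in R26 CD44+ and 554 to 1171 in R26 CD44- libraries, all 5 detected. Basal cell markers stood out in R26 CD44+ animal 1 alone, with 57.4 CPM against 0.501 to 2.26 in the other 15 libraries. The 8 endothelial markers, all detected, summed to 104 to 111 CPM in OG CD44+, 175 to 182 in OG CD44-, 175 to 189 in R26 CD44+ and 131 to 151 in R26 CD44- libraries. Of the 7 tested, 5 fell in OG CD44+ against OG CD44- cells and 6 rose in R26 CD44+ against R26 CD44- cells (median log2 fold change 2.23). The interaction of all 7 passed below 0, the direction of the mitotic genes, as did that of 18.1% of all genes. It also passed below 0 for 5 of 7 fibroblast and mural cell markers tested (median -1.76) and for Ptprc (-3.39). Of 10 macrophage and 5 lymphocyte and plasma cell markers tested, 3 and 2 passed below 0. In edgeR the interaction passed below 0 for 0 of 6 ciliated and 0 of 5 club and secretory markers. AT1 markers, all 8 detected, summed to 3709 to 4135 CPM in OG CD44+, 3790 to 4196 in OG CD44-, 2113 to 2487 in R26 CD44+ and 1538 to 1734 in R26 CD44- libraries. The interaction of 6 of 8 passed below 0. Of 3 mesothelial markers tested, 1 rose and 2 fell in OG CD44+ cells and 3 rose in R26 CD44+ cells, with 3 interactions that passed below 0. All 6 ciliated markers rose in CD44+ cells of both OG and R26 animals. Of 10 macrophage markers tested, 1 rose and 3 fell in OG CD44+ cells, 5 rose and 1 fell in R26 CD44+ cells, and 8 were higher in OG CD44- than in R26 CD44- cells. Itgam, an integrin of myeloid cells, averaged 5.33 CPM in R26 CD44+ and 0.163 CPM in R26 CD44- cells. The part of these other cells in the CD44 differences of the 41 genes was not tested.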

How the data were processed

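Raw counts per gene were deposited by the authors as whole numbers in 1 table, with no normalization. The submitters' processing notes name Bowtie2 and the mm10 build. The counting program, annotation and strand setting are not given in the sources used here. The kit keeps strand and removes ribosomal RNA, per the labels' protocols. Sort and animal were read from the column names, and all 16 columns were used.

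Symbols were found for 25275 of 27179 identifiers (93.0%). The identifier without a symbol that holds 7.32% of all counts stayed in the library sizes. Tests were run in edgeR 4.0.16 (R 4.3.3). Low genes were removed by filterByExpr, libraries were scaled by TMM, and a robust quasi-likelihood F test was made with a mean for each group, fitted to the 16 libraries together. Calls have a Benjamini-Hochberg adjusted p under 0.05 over 15516 genes, with no limit on fold. Each SE was taken as |log2 fold change| over the root of F. RPKM used exon lengths of GENCODE M21 on GRCm38, from which gene coordinates were also taken. Exons of 12 of 41 members overlap a gene on the other strand. These are Ccna2, Ccnd1, Cdc20, Cdca8, Gins2, Kif20a, Mcm7, Nusap1, Plk1, Prc1, Tk1 and Ube2c. With unknown strand counting, the 2 genes' reads cannot be told apart. Gins2 shares the most, 2758 of 4097 exon bases with Gse1. The members, lists and tests were chosen with earlier results of these data known. Named genes are every member called in at least 1 of the 5 comparisons, members with the highest level of their phase, 8 members named in any case, all CDK inhibitors and, of each pathway list, some of the genes with the smallest adjusted p. The fits were tested on simulated data with known changes.

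The animal numbers in the column names were read as pairing the 2 sorts of a mouse. Deviations from the group means correlated at 0.02 to 0.10 between the sorts of an OG animal and 0.13 to 0.24 for R26 animals. The best match of OG CD44+ animal 6 was OG CD44- animal 7, and every other CD44+ library matched its own animal best. Alternatives were the replicate block, DESeq2 1.42.0 size factors and Wald test, another TMM reference, limma 3.58.1 voom with quality weights and animal correlation, other count filters, only the 8 libraries compared, other pseudocounts, and leaving libraries out. Summing OG animals 7, 6 and 5 was added after seeing the data.

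Depth was 9022471 to 21363816 counts per library. Floors cover counting error only, since reads carry no molecular identifiers. Some results on single pathway and marker genes are not reported here.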

Additional observations from a re-analysis of the deposited data

Results flagged for a closer look

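In 10 of 164 sets of 4 libraries (41 genes in 4 groups), 1 library stood far from the others of its group, the gap to its neighbor taking up most of the group's range (Dixon's test at the 95% level). Chance alone gives about 1 in 20. Animal 7 was the highest of OG CD44+ for Kif11 (7.74 CPM), Ube2c (3.56) and Mcm5 (20.5), and the lowest of OG CD44- for Bub1b (5.39). Animal 3 was the highest of OG CD44- for Ccnb2 (4.84) and Ccnd1 (717), and the lowest of OG CD44+ for Ccnd1 (766). Animal 6 was the lowest of OG CD44- for Ccne1 (1.21). Animal 7 of R26 was the highest of R26 CD44- for Pcna (41.3) and Tk1 (11.3).

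The CD44 difference in OG minus that in R26 animals passed its own test for 17 of the 41 genes, on the log2 scale. It was -2.30 for Ccnb1, -2.04 for Cenpe, -2.00 for Plk1, -1.97 for Cenpf, -1.90 for Kif11, -1.87 for Ccna2, -1.86 for Cdk1, -1.85 for Mki67, -1.84 for Aurkb, -1.79 for Top2a, -1.71 for Ube2c, -1.64 for Tpx2, -1.58 for Ccnb2, -1.56 for Nusap1, -1.21 for Cdc20, -1.19 for Prc1 and 0.35 for Ccnd1.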

How the results depend on the processing

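No member reversed its direction under any alternative while called. In OG CD44+ against OG CD44- cells, 13 members were called, against 28 with limma voom, 35 with only the 8 libraries compared, 32 with the replicate block, 8 without both libraries of OG animal 3, and 1 with OG animals 7, 6 and 5 summed. That summing also gave 12 in place of 20 calls in OG CD44+ against R26 CD44+ cells and 3 in place of 17 in the interaction. Summing leaves fewer libraries and so fewer degrees of freedom. The cause of the moves was not tested for any of these settings. The block gave 31 calls in R26 animals and 25 in the interaction. Leaving out 1 library in turn gave 7 to 20 calls for OG, 27 to 29 for R26 (28 with all libraries), 14 to 23 for OG against R26 in CD44- cells, 15 to 22 in CD44+ cells and 12 to 23 for the interaction. The S phase minus mitotic difference was 0.46 in OG CD44+, 0.48 in OG CD44- and 0.63 in R26 CD44- cells with a pseudocount of 5 CPM, and 0.76 in OG CD44- with 0.5 CPM. Leaving out 1 library moved it to 0.60 to 0.66 in OG CD44+, 0.70 to 0.73 in OG CD44-, -0.27 to -0.05 in R26 CD44+ and 0.98 to 1.12 in R26 CD44- cells. With another TMM reference library the all-gene median of the interaction moved from -0.10 to 0.06, while the mitotic median was -1.46 and 14 mitotic genes passed below 0. Depth limits the lowest genes: R26 CD44- animal 2 held 2 counts of Ttk, 4 of Ccnb1 and 5 of Aurkb.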
